A study of Mus musculus with 3 samples.

Results

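The genes of the MYC, MAX and MXD network were examined in thymocytes, which are T cells still maturing in the thymus, from 3 wild-type (wt) mice. The 10 members, Myc, Mycn, Mycl, Max, Mga, Mnt, Mxd1, Mxd3, Mxd4 and Mxi1, were taken as the probe sets whose platform annotation gives that single symbol. All 10 had 1 probe set each among the 19938 genes that could be named. The mice carry the numbers 92, 103 and 106, have a mixed FVB and C57BL6 background and are the normal animals of a study of T cell lymphomas in tPTEN-/- mice; the lymphomas were not analysed here. Total RNA was hybridised to Affymetrix MoGene 1.0 ST arrays, 1 array per mouse, so there is 1 group and no comparison between conditions. Each sample is labelled with 0.3 µg of RNA and a low RNA integrity number, 3. The labels also list a T cell lymphoma under disease state for these mice, although the titles and genotypes say wt. Age and sex are not in the labels.

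MYC, N-MYC and L-MYC are transcription factors of the basic helix-loop-helix leucine zipper class that bind DNA only as dimers with MAX. MAX also pairs with the MXD proteins (MXD1, MXD3, MXD4 and MXI1), with MNT and with MGA, and these dimers occupy the same DNA element, the E-box CACGTG, and mostly repress. MYC drives ribosome production, metabolism and cell division in thymocytes that have passed the pre-T cell receptor checkpoint, while MXD proteins are known from cells that leave the cell cycle.

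The E-box was looked for in the promoters that RefSeq gives for the mouse genome (build GRCm38.p6), each a window of 300 bases with 250 before and 50 after the start site. CACGTG reads the same on both strands. Of the 10 network genes, 9 were in the promoter table, with 11 promoters; Myc was not matched. CACGTG lay in the promoters of Max, Mnt and Mxd4, that is in 3 of the 11 promoters (27.3%). The share was 9.84% over 12383 promoters of genes above background on all 3 arrays, as the members are, and 7.15% over all 32851 promoters in the table. Only 79.6% of the genes above background had an entry, and neither share was matched for base composition. A match describes letters only. The windows are shown because they carry the element for which all of these proteins compete; the E-box is in capitals and each window has 30 bases, 5′ to 3′ on the gene's strand.
Max, chr12:76962234-76962263, minus strand: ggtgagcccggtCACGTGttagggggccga
Mnt, chr11:74830789-74830818, plus strand: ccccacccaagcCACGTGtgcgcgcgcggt
Mxd4, chr5:34187912-34187941, minus strand: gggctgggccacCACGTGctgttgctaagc
The first base of the E-box was at position -3 relative to the start site in Max, -123 in Mnt and -219 in Mxd4. The promoters of Mga and Mycl held the related element CACGCG, searched on both strands. This is 18.2% of the members' promoters, close to the 16.5% of promoters of genes above background; the share was 9.27% of all promoters. Neither element was in the windows of Mycn, Mxd1, Mxd3 or the 3 promoters of Mxi1.

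MAX dimers share this element with the MLX branch of the network, in which MLX pairs with the glucose-responsive factors MLXIP (MondoA) and MLXIPL (ChREBP). CACGTG was in the promoters of Mlx and Mlxipl, and not in that of Mlxip.
Mlx, chr11:101087238-101087267, plus strand: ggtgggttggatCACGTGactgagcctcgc
Mlxipl, chr5:135089780-135089809, plus strand: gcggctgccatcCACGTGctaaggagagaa
Among genes known as MYC targets, Cdk4, the G1 cyclin-dependent kinase, had 4 copies in 1 promoter, and no other promoter of the lists described here had more than 2. The 250 bases before its start site are shown with the 4 E-boxes in capitals.
Cdk4, chr10:127063285-127063534, plus strand: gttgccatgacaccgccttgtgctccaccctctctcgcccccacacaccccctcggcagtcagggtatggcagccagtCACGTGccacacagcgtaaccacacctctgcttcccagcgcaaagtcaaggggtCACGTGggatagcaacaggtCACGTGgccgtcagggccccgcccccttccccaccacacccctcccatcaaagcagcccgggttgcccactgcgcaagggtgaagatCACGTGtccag
The lactate dehydrogenase gene Ldha had 2 copies in 1 promoter.
Ldha, chr7:46845647-46845676, plus strand: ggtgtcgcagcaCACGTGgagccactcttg
Ldha, chr7:46845744-46845773, plus strand: cggcccagcctaCACGTGggttcccgcacg

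All 10 network genes read above background on each of the 3 arrays. Levels are log2 values as deposited. Background was set on each array from 1203 receptor genes of the nasal epithelium (olfactory, vomeronasal and trace amine receptors), with their 95th percentile, 5.91 to 6.10 over the arrays, as the threshold. By this rule 61.8% of all named genes were above background on all 3 arrays. A looser threshold, the receptor median plus 1, was passed by 78.6% of named genes and by the same 10 members. Probes differ in affinity, so levels of different genes are not ranked against each other. The medians of the arrays were 6.70, 6.71 and 6.72 in mice 92, 103 and 106. The 14 measured thymocyte markers were all above background on the 3 arrays, among them Cd3g, a CD3 chain, at 13.33, 13.30 and 13.25 in mice 92, 103 and 106. No lymphoma was analysed beside them, so these markers cannot settle the disease state given in the labels.

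**Figure D1:**
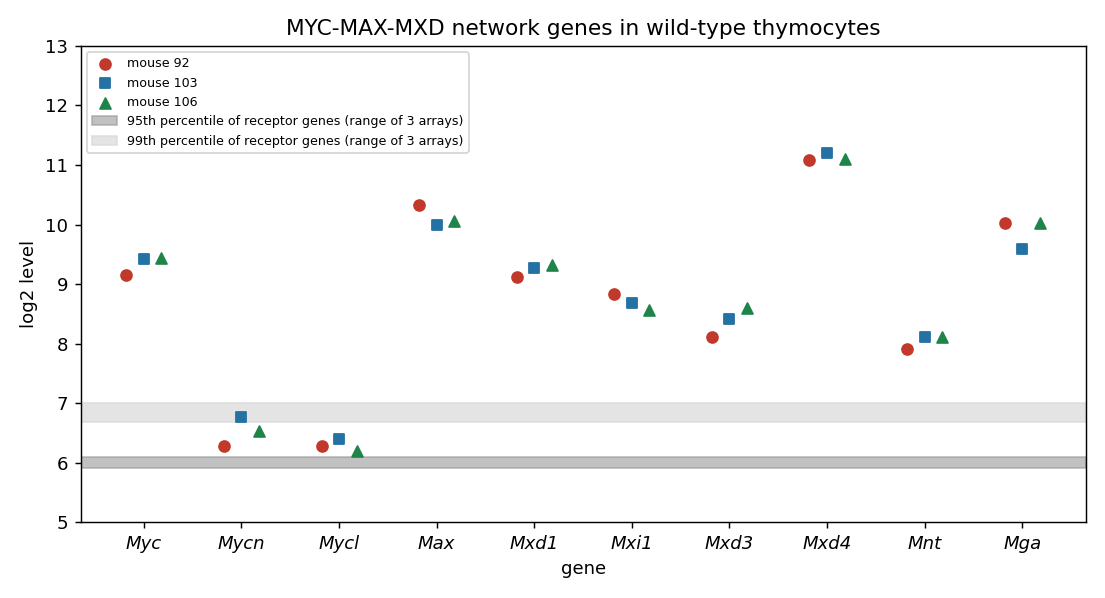
Log2 level (y axis) of each network gene (x axis) in mice 92, 103 and 106, with 1 point per array. The dark and light bands span the 95th and 99th percentiles of the receptor genes over the 3 arrays; Mycn and Mycl lie above the dark band and within or below the light one, and the other 8 genes lie above both.

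Of the 3 MYC proteins, Myc read well above background and Mycn and Mycl read close to it. Myc, the member of the family known for growth of cycling thymocytes, gave levels of 9.15, 9.43 and 9.44 in mice 92, 103 and 106, a mean of 9.34 ± 0.17 (SD, n = 3). No receptor gene reached the level of Myc on any array, and Myc exceeded the threshold by 3.23, 3.33 and 3.44. The level of Myc was lowest in mouse 92 and nearly equal in the other 2 mice, a range of 1.23-fold. Mycn, known from neural and early progenitor cells, had levels of 6.27, 6.78 and 6.54 and a mean of 6.53 ± 0.25 (SD, n = 3). Mycn exceeded the threshold by only 0.36, 0.68 and 0.54, and 36, 21 and 24 of the 1203 receptor genes read at or above it. Its lowest level was in mouse 92 and its highest in mouse 103, a range of 1.42-fold. Mycl, which is known from dendritic cells, had levels of 6.29, 6.39 and 6.20 and a mean of 6.29 ± 0.10 (SD, n = 3). Between 35 and 45 receptor genes read at or above Mycl on each array. With a stricter threshold, the receptor genes' 99th percentile (6.68, 7.00 and 6.85 in mice 92, 103 and 106), passed by 46.8% of named genes, Mycn and Mycl were not above background on any array and the other 8 members remained above it.

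Max, the gene of the partner shared by the MYC proteins, MXD proteins, MNT and MGA, had levels of 10.33, 9.99 and 10.06 in mice 92, 103 and 106. Its mean was 10.13 ± 0.18 (SD, n = 3). Its level was highest in mouse 92, the mouse in which Myc was lowest, with a range of 1.26-fold. The difference of Max minus Myc within an array was 1.18, 0.56 and 0.61 in mice 92, 103 and 106. The size of this difference is set by the probes, and only its change between mice, 0.62 or 1.53-fold, can be read. This pair was chosen after its values were seen and was not tested.

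The 4 MXD repressors were above background by at least 2.20 on every array. Mxd1 (MAD1), known from differentiating blood cells and neutrophils, had levels of 9.12, 9.27 and 9.33 in mice 92, 103 and 106, a mean of 9.24 ± 0.11 (SD, n = 3). Mxi1 (MAD2) had levels of 8.83, 8.69 and 8.56 and a mean of 8.69 ± 0.13 (SD, n = 3). The order of the mice was thus opposite in Mxd1 and Mxi1, with ranges of 1.16-fold and 1.20-fold. Mxd3, the MXD gene known from cells in S phase, had levels of 8.11, 8.42 and 8.60 and a mean of 8.38 ± 0.25 (SD, n = 3). Mxd3 had the widest range of the 4 MXD genes, 1.40-fold, with its lowest level in mouse 92. Mxd4 had levels of 11.08, 11.20 and 11.11, a mean of 11.13 ± 0.06 (SD, n = 3). The range of Mxd4, 1.09-fold, was the narrowest of the 10 network genes.

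Mnt and Mga encode the large MAX partners. Mnt, a repressor present in both resting and cycling cells, had levels of 7.90, 8.12 and 8.11 in mice 92, 103 and 106, a mean of 8.04 ± 0.12 (SD, n = 3). Mga, which carries a T-box domain beside its helix-loop-helix and anchors a Polycomb complex, had levels of 10.03, 9.58 and 10.03, a mean of 9.88 ± 0.26 (SD, n = 3). Mga was nearly equal in mice 92 and 106 and lowest in mouse 103, a range of 1.36-fold.

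**Figure D2:**
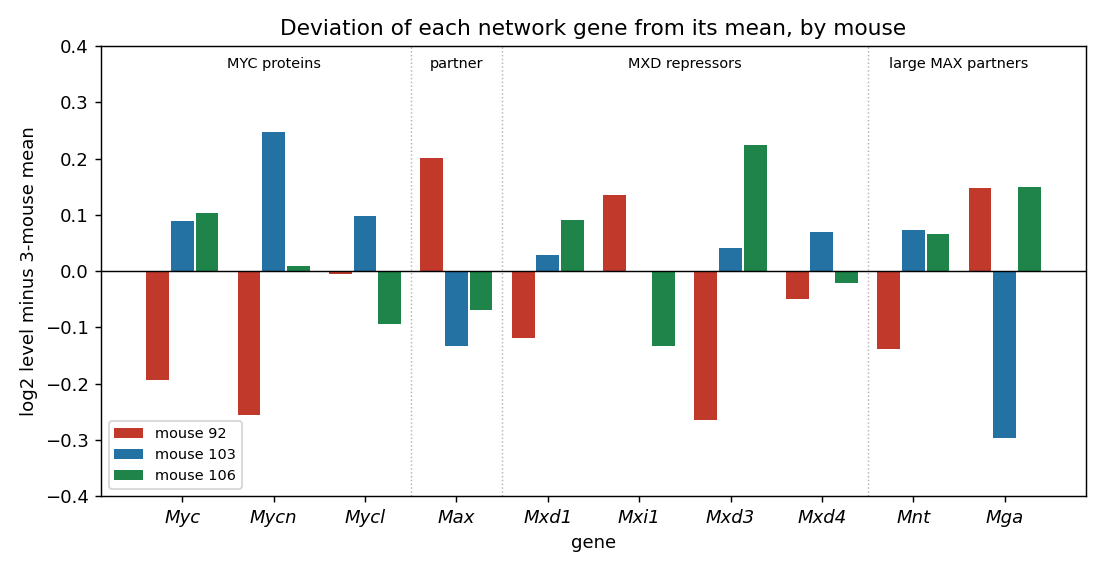
Deviation of each network gene from its own 3-mouse mean (log2, y axis) in mice 92, 103 and 106, grouped by role. Myc, Mycn, Mxd1, Mxd3, Mxd4 and Mnt are lowest in mouse 92, Max and Mxi1 are highest there, and Mga is lowest in mouse 103.

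No network gene had a spread between mice that passed the test. The test set the variance of each of 13316 genes, those above background on 1 array or more, against the variance expected at its level (limma, prior not robust, trend on level, Benjamini-Hochberg adjusted over these genes), and 30 genes, 0.225%, passed an adjusted p of 0.05. Of the 10 network genes, 0 passed. The smallest unadjusted p of a member was 0.0846 for Mga, followed by 0.112 for Mxd3 and 0.161 for Mycn (limma), and the adjusted p was 0.996 for each of these 3. At an unadjusted p under 0.05, limma gave 0 members and 4.85% of tested genes. A robust prior with the bulk degrees of freedom also gave 0 members in limma, where 44 genes (0.33%) were called in all. With a robust prior and degrees of freedom per gene, limma gave no call at all (0 genes adjusted, 600 below 0.05 before adjustment). With 1 mouse left out, 51 to 84 genes passed in limma (51 without mouse 103, 58 without mouse 92 and 84 without mouse 106), and 0 of them were members. The SDs of the members ran from 0.06 (Mxd4) to 0.26 (Mga), with a median of 0.15 against 0.13 for all tested genes. The smallest SD among the 30 genes that passed was 0.76, and their smallest range was 2.73-fold, so differences of the size seen in the network, at most 1.42-fold, were not detectable with 3 arrays. These p-values measure the spread between the samples of 3 numbered mice.

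**Figure D3:**
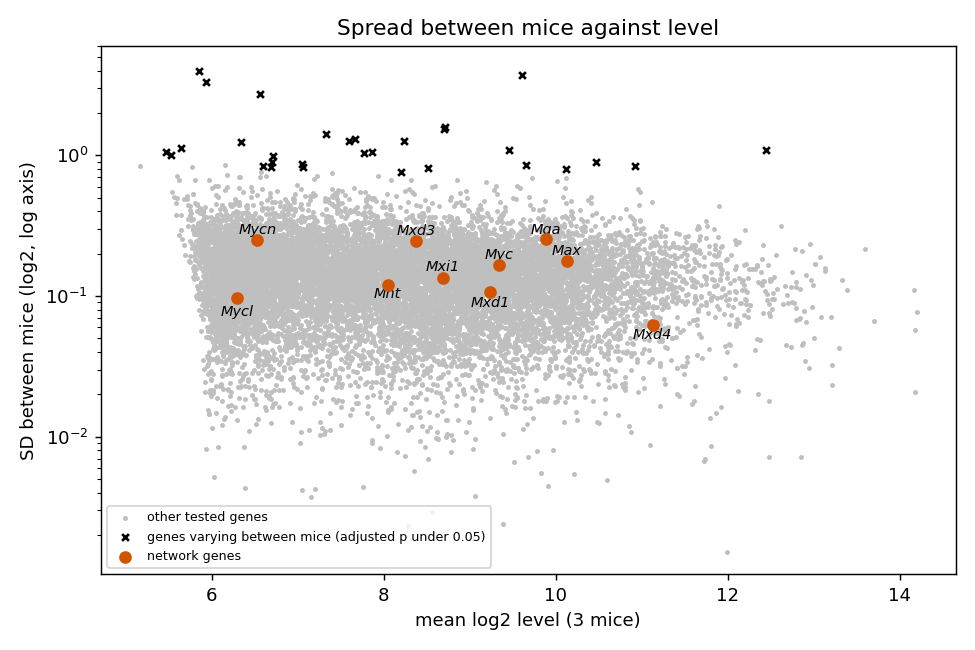
SD between the 3 mice (log axis, y) against mean log2 level (x) for each tested gene, with the 10 network genes as large named points and the 30 genes that passed the test as crosses. The network genes lie between SDs of 0.06 and 0.26, inside the cloud of other genes, and the crosses start at 0.76.

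In mouse 92, 6 of the 10 members had their lowest level, against 35.1% of all tested genes. The mean deviation in mice 92, 103 and 106 was -0.15, 0.14 and 0.01 over the 3 MYC proteins, -0.07, 0.03 and 0.04 over the 4 MXD repressors and 0.00, -0.11 and 0.11 over Mnt and Mga. The mean of the MYC proteins includes Mycn and Mycl, which read close to background. Myc alone deviated by -0.19, 0.09 and 0.10. Max deviated by 0.20, -0.13 and -0.07. Markers of some other cell types stood apart in the same mouse. The neutrophil markers had a median SD of 1.01, and 6 of the 11 that were tested varied between the mice (limma, adjusted p under 0.05). Of these 6, Mmp8 was above background only in mouse 103, so it entered the test only through that mouse. All 12 neutrophil markers were lowest in mouse 92, with mean levels of 6.07, 7.70 and 7.42 in mice 92, 103 and 106; Mpo, Elane, Mmp8 and Cxcr2 were not above background on every array. The granule gene Ngp was at 6.88, 9.63 and 9.61. The 9 measured B cell markers were also all lowest in mouse 92, with means of 6.42, 7.55 and 7.24. Of these, 5 were above background on all 3 arrays, including the B cell receptor chain gene Cd79b at 8.47, 9.56 and 8.85, while Ebf1, a defining factor of these cells, was not above background on any array. Of 8 tested B cell markers, 1 varied (Cr2). Cr2 had levels of 5.74, 7.32 and 7.01 in mice 92, 103 and 106. The level in mouse 92 was below background, so Cr2 entered the test only through mice 103 and 106. Macrophage and dendritic cell markers averaged 7.11, 7.65 and 7.33 over 10 genes, of which 8 were above background on all 3 arrays. Erythroid markers averaged 6.17, 6.98 and 6.67 over 7 genes, of which 5 were above background on all 3 arrays. In the erythroid list the haem synthesis gene Alas2 varied, while Klf1 and Rhag were not above background on any array. Many of these markers read near background. At the 99th percentile of the receptors, 3 of 12 neutrophil, 3 of 9 B cell, 6 of 10 macrophage and dendritic cell and 2 of 7 erythroid markers remained. The neutrophil markers lost included S100a8 and Ltf, which varied. All 14 thymocyte markers remained. Thymocyte markers were highest in mouse 92 in 11 of 14 cases, against 37.4% of all tested genes, with means of 12.01, 11.88 and 11.93. The 11 measured markers of dividing cells averaged 10.02, 9.95 and 10.15. Of these, 0 had an unadjusted p under 0.05 (limma), against 4.85% of all tested genes. The part of these markers in the levels of the network genes was not tested. In RNA from whole samples, fewer cells of a type and less RNA per cell cannot be told apart.

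**Figure D4:**
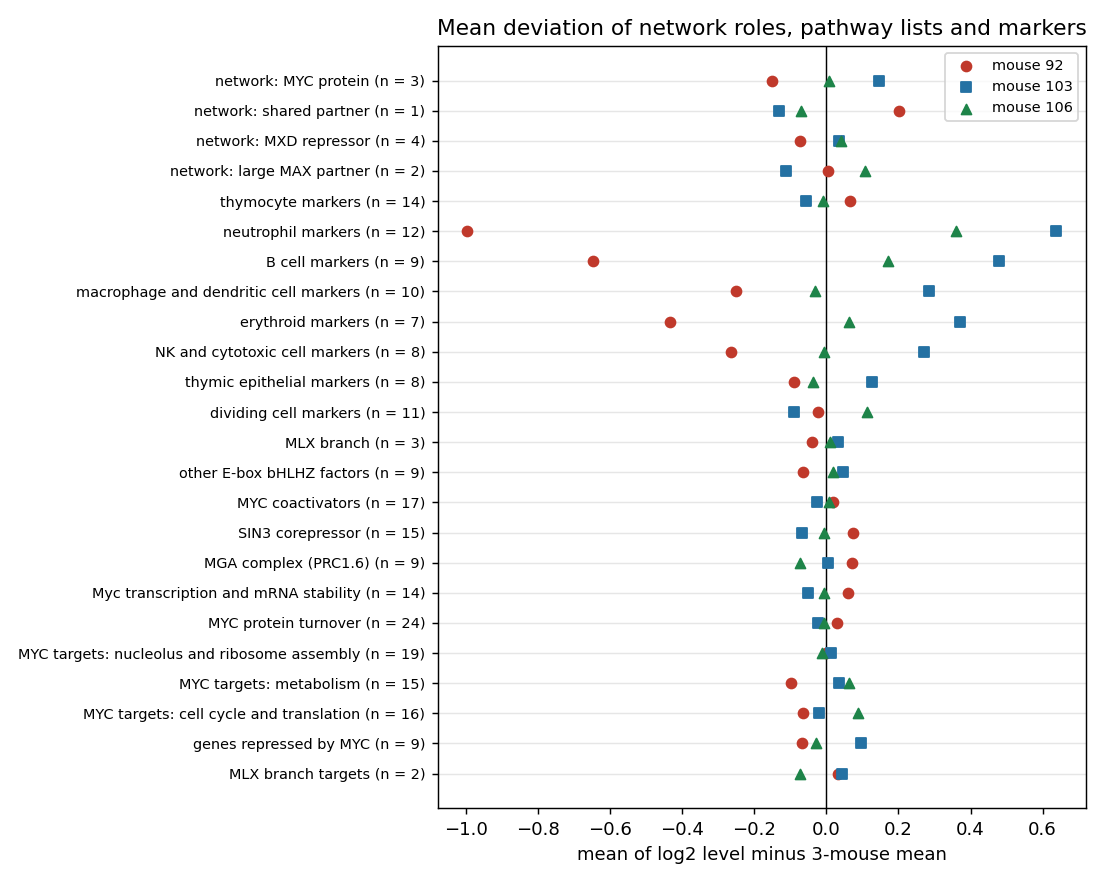
Mean deviation from the 3-mouse mean (log2, x axis) in mice 92, 103 and 106 for the 4 roles of the network, the pathway lists and the marker lists (rows, with the number of genes measured). Neutrophil markers spread from -0.996 to 0.637, while the 4 roles of the network lie between -0.15 and 0.20.

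The surrounding pathway was followed in 12 lists with 164 genes, of which 152 were measured. Of these, 147 were above background on all 3 arrays, 96.7% against 61.8% of all named genes, and 139 with the stricter threshold. Of the 148 that were tested, 0 varied between the mice (limma, adjusted p), and 7 passed 0.05 before adjustment, 4.73% against 4.85% of all tested genes. Their median SD was 0.14 against 0.13 for all tested genes.

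In the MLX branch all 3 genes were above background, and their levels differed little between the mice, with a median SD of 0.06. Mlx had levels of 9.78, 9.79 and 9.69 in mice 92, 103 and 106, Mlxip 8.55, 8.63 and 8.64, and Mlxipl 6.22, 6.34 and 6.37. Mlxipl was thus near the background threshold. Txnip and Arrdc4, arrestin-family genes that MLX dimers induce, were both above background, Txnip at 12.05, 12.06 and 11.91 and Arrdc4 at 7.45, 7.47 and 7.38. Of 9 other basic helix-loop-helix leucine zipper factors that bind E-boxes, 7 were above background. The exceptions were Mitf, the factor of pigment cells and osteoclasts, and its relative Tfec, which read 4.32, 4.28 and 4.41 and 5.25, 5.22 and 5.05. Srebf2, the regulator of cholesterol synthesis, was at 9.97, 10.16 and 10.11 and Usf2 at 9.90, 10.07 and 10.13.

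All measured genes listed for the proteins through which the dimers act were above background at the RNA level. MYC coactivators passed in 17 of 17 measured cases, including the acetyltransferase gene Crebbp at 11.34, 11.21 and 11.55 and the chromatin factor gene Bptf at 10.79, 10.49 and 10.92 in mice 92, 103 and 106. Trrap, the scaffold that binds MYC and carries acetyltransferases, had the largest SD of this list, with levels of 10.61, 10.25 and 10.03 (unadjusted p = 0.0455, adjusted p = 0.996, limma). The SIN3 corepressor, which MXD proteins and MNT recruit, had 15 of 15 genes above background. At the 99th percentile of the receptors 14 remained, without Sap30. The histone deacetylase genes Hdac1 and Hdac2 of this list were at 11.91, 11.73 and 11.75 and at 11.43, 11.24 and 11.08. The Polycomb complex of MGA (PRC1.6) had 9 of 9 genes above background, including Cbx3, a heterochromatin protein gene, at 11.03, 10.66 and 10.60, the ubiquitin ligase gene Rnf2 at 9.47, 9.22 and 9.02 and Tfdp1, a partner of E2F factors, at 10.24, 10.53 and 10.40. The lowest level of Cbx3 and of Rnf2 was in mouse 106, whereas that of Mga was in mouse 103.

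Among genes that control Myc transcription and mRNA stability, 11 of 14 were above background. Pvt1, the long non-coding RNA gene that neighbours Myc, read 4.47, 4.83 and 4.70 in mice 92, 103 and 106, below the threshold on each array. The RNA-binding protein gene Igf2bp1, known from embryonic tissue, was likewise below it at 4.87, 4.91 and 4.99, and Igf2bp3 passed on 2 arrays with 6.52, 6.22 and 5.91. Notch1, the receptor that induces Myc in T cell progenitors, had the largest SD of the list, with levels of 10.23, 10.63 and 10.87. Notch1 and Myc were both lowest in mouse 92 (Notch1: unadjusted p = 0.0269, adjusted p = 0.869, limma). Over the 14 measured genes of the list, however, 3 were lowest and 9 highest in mouse 92. The shares over all tested genes were 35.1% lowest and 37.4% highest in that mouse. Lef1, a nuclear partner of beta-catenin, was at 11.99 in each of the 3 mice. All 24 measured genes of MYC protein turnover were above background, and 22 at the 99th percentile of the receptors. The deubiquitinase gene Usp7 was at 11.82, 11.49 and 11.68, the phosphatase subunit gene Ppp2r5a at 11.68, 11.35 and 11.35 and Trim32, a ubiquitin ligase gene with the largest SD of this list, at 7.85, 7.57 and 7.28.

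Every measured gene known as a MYC target was above background, 19 of 19 for nucleolus and ribosome assembly, 15 of 15 for metabolism and 16 of 16 for cell cycle and translation. At the 99th percentile of the receptors, Hk2 of the metabolic list was no longer above background, and 14 of those 15 genes remained. These 3 lists had median SDs of 0.13, 0.16 and 0.13. The mean deviation of the nucleolar list was 0.00, 0.01 and -0.01 in mice 92, 103 and 106. That of the metabolic list was -0.10, 0.04 and 0.06, and that of the cell cycle and translation list -0.07, -0.02 and 0.09. In mouse 92, 10 of 15 and 10 of 16 genes of these 2 lists were lowest, against 35.1% of all tested genes. Npm1, the gene of the nucleolar protein nucleophosmin, had the largest SD in the nucleolar list, with levels of 11.23, 10.40 and 10.83 (unadjusted p = 0.00595, adjusted p = 0.495, limma). Its range was 1.77-fold, with the highest level in mouse 92, where Myc was lowest. Without mouse 106, Npm1 passed (adjusted p = 0.0462, limma), but in that fit on 2 arrays the prior degrees of freedom were infinite and 84 genes passed, against 30 with all mice. The nucleolin gene Ncl was at 11.26, 11.01 and 11.11 and the ribosome assembly gene Nop56 at 11.07, 10.86 and 10.66. These 3 nucleolar genes were highest in mouse 92, but over the list of 19 genes 6 were highest and 7 lowest in that mouse.

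Cdk4, whose E-boxes are shown above, had levels of 11.34, 11.55 and 11.58 in mice 92, 103 and 106. Its partner Ccnd2 (cyclin D2) was at 11.08, 11.34 and 11.52. The cell cycle transcription factor gene E2f1 had the largest SD of its list, with 7.83, 8.16 and 8.48 (unadjusted p = 0.037, adjusted p = 0.951, limma). Cdk4, Ccnd2 and E2f1 were lowest in mouse 92 and highest in mouse 106. The translation factor gene Eif4a1 had the opposite order, 12.56, 12.43 and 12.39. Over the 16 genes of the list, 10 were lowest and 5 highest in mouse 92, against 35.1% and 37.4% of all tested genes. Ldha was at 12.14, 12.32 and 12.18, and the hexokinase gene Hk2, with the largest SD of the metabolic list, at 6.28, 6.83 and 6.72. CACGTG was in 26.9% of the 26 promoters of the cell cycle and translation list, 23.8% of the 21 of the metabolic list and 11.1% of the 18 of the nucleolar list, against 9.84% of promoters of genes above background and 7.15% of all promoters. The nucleolar share was thus near that of genes above background, as was the 9.09% of 11 promoters of the genes that MYC is known to repress. CACGTG was in 1 of 16 promoters of the SIN3 list (6.25%) and in 0 of 15 of the other E-box factors, lists in which under 80% of the genes had a promoter entry.

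Genes that MYC is known to repress were also above background in 9 of 9 cases, and in 6 at the 99th percentile of the receptors. Cdkn1b, the inhibitor p27 of cyclin-dependent kinases, had levels of 10.29, 9.65 and 9.90 in mice 92, 103 and 106 (unadjusted p = 0.0291, adjusted p = 0.871, limma). The related inhibitor gene Cdkn2b (p15), the list's gene with the largest SD, was at 6.18, 6.82 and 6.96 (unadjusted p = 0.0175, adjusted p = 0.762, limma). The order of the mice thus differed between these inhibitor genes, with Cdkn1b highest and Cdkn2b lowest in mouse 92. Cdkn2b, however, read near background and was among the genes lost at the 99th percentile of the receptors. The median SD of the list was 0.20 against 0.13 for all tested genes.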

How the data were processed

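The deposited values are log2 levels of 35557 probe sets on 3 arrays, made by the authors with Affymetrix Expression Console per the submitters' processing notes; the log2 scale was inferred from their range, and their normalisation is not given in the sources used here. In naming, the 21789 probe sets with 1 gene symbol gave 19938 genes after averaging; 1621 with several symbols and 12147 not listed in the annotation were left unnamed. The test of spread used limma 3.58.1 (R 4.3.3), an upper-tail F test of each gene's variance over a trended prior with 10.4 degrees of freedom, and the script was tested on simulated data. The members and lists were chosen with earlier results of these data known. From each pathway list, the genes eligible to be named were those that varied, those below background on any array, the 3 highest and the one with the largest SD; marker lists are summarised. With 3 arrays, no gene was sought for a pattern like a member's. Alternatives were other thresholds, priors, normalisations, probe set choice, no filter, and each mouse left out. Promoters are from RefSeq.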

Additional observations from a re-analysis of the deposited data

How the results depend on the processing

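All 10 members stayed above background under each alternative except the 99th percentile of receptor genes, where 8 did, and 0 varied under any of the 12 alternatives run for the limma test; the lowest adjusted p was 0.610, for Mga without mouse 92. The 6 members lowest in mouse 92 were lowest there after quantile normalisation, median centring and cyclic loess too, whereas the mouse with the highest level of Myc, Mycl or Mga changed with the normalisation. The count of all varying genes, 30, became 19 with background at the 99th percentile, 18 after quantile normalisation, 18 after cyclic loess and 0 with the per-gene degrees of freedom of a robust prior, and ran from 51 to 84 with 1 mouse left out; the cause was not tested. Pathway genes varying ran from 0 to 1 (Npm1) with 1 mouse left out. Only 3 arrays, 1 group and an RNA integrity number of 3 limit every value. No paired analysis was possible because there is 1 group.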
